A study of Homo sapiens with 8 samples.

Results

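Plasminogen is made into plasmin, a broad protease, by 2 activators, and the 7 genes described here encode both activators together with proteins that anchor or inhibit them. PLAT encodes tissue-type plasminogen activator, PLAU urokinase and PLAUR the urokinase receptor. SERPINE2 and SERPINB2 encode serpins that inhibit the activators, and ANXA2 and S100A10 the annexin A2 and p11 subunits of a complex that docks plasminogen and tissue-type activator at the cell surface. The 7 were taken from the 58395 genes of the count table, and all 7 were among the 15637 genes with enough reads to be fitted. The group was picked for the falls of PLAT, PLAU and SERPINB2 in these same libraries, so the difference between the groups is given below as a description, with no p-value for any of the 7.

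RNA was sequenced from AB8 cells, a line derived from human podocytes, the epithelial cells that wrap glomerular capillaries. The 4 Dox libraries came from cells induced for 48 h to express human CRB2, a cell polarity protein of the crumbs family, with the change S267A. The 4 woDox libraries came from non-induced cells carrying the same pIND21_hCrb2+GFP_S267A modification, at passage 3 to 8 after modification like the Dox cells. Each group had libraries numbered 1 to 4, and the labels do not state whether a number marks a culture or a day. The drug, the raised CRB2, its S267A change and GFP cannot be told apart in this design, and a doxycycline-only control was not analysed here. In bulk RNA, fewer cells of a kind and less RNA per cell cannot be told apart either.

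Urokinase is secreted as an inactive single chain, binds its receptor at the cell surface and is activated there, where plasmin and urokinase activate each other. Tissue-type activator works best on plasminogen that is held on fibrin or on a docking protein. Serpins act as suicide substrates that trap the active enzyme. In the kidney, urokinase and its receptor have been studied in podocytes for receptor signalling through integrins and in the tubule for urinary fibrinolysis.

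Library totals lay between 16829454 and 23081616 counts, with mitochondrial genes taking between 2.88% and 3.91%. CRB2 stood at 1734, 4252, 4599 and 4481 CPM (counts scaled by library totals that edgeR adjusted by TMM) in Dox libraries 1 to 4, against 8.31, 26.0, 26.4 and 21.8 CPM in woDox libraries 1 to 4. Both libraries numbered 1 stood apart from the rest, with a median correlation to their own group of 0.969 in Dox and 0.970 in woDox, against 0.992 to 0.993 in the other 6 libraries, so values without them are given below. Same-numbered libraries deviated together from their group means, and the number was therefore also fitted as a block, which compares Dox with woDox within each number. Of the 6 podocyte markers, NPHS1 had at most 2 reads in any library, while CD2AP and SYNPO were expressed. The 6 podocyte markers together reached 292 to 313 CPM in Dox and 263 to 303 CPM in woDox libraries, mostly CD2AP. It averaged 245 ± 7.52 CPM in Dox and 229 ± 16.6 CPM in woDox, whereas WT1 averaged 2.54 ± 1.47 CPM in Dox and 3.18 ± 1.68 CPM in woDox (SD, n = 4 each). PODXL, at 3.72 ± 0.46 CPM in Dox and 2.64 ± 0.63 CPM in woDox (SD, n = 4 each), was the only one of the 5 tested podocyte markers to pass with the block (adjusted p = 0.0350 in edgeR, and 0.0874 without pair 1, 0.0864 without pair 2, 0.155 without pair 4 and 0.234 in DESeq2 with the block); its part in the results was not tested. Markers of other cell types were low, with 7 endothelial genes summing to 0.714 to 1.32 CPM in Dox and 0.778 to 1.45 CPM in woDox, 7 leukocyte genes to 8.96 to 17.9 CPM in Dox and 8.70 to 18.9 CPM in woDox, mostly ITGB2, 4 mesangial genes to 1.05 to 2.63 CPM in Dox and 1.20 to 2.64 CPM in woDox, and 6 tubular genes to 1.36 to 2.31 CPM in Dox and 0.980 to 1.89 CPM in woDox. Of the 3 tested leukocyte genes, CSF1R averaged 1.19 ± 0.27 CPM in Dox and 1.86 ± 0.23 CPM in woDox, and LST1 0.771 ± 0.13 CPM in Dox and 1.16 ± 0.29 CPM in woDox (SD, n = 4 each). Both had Dox libraries that all lay below the woDox libraries, with 13 to 31 reads in Dox and 16 to 44 reads in woDox, and neither passed in either edgeR fit (adjusted p = 0.0586 and 0.129 with the block); their part in the results was not tested. PTPRC had at most 1 read, PECAM1 at most 2, and TYROBP, KDR, EMCN, ITGA8, LRP2, UMOD and AQP2 had none.

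Promoter sequence is shown for SERPINB2, ANXA2, PLAUR and PLAU as examples. AP-1 motifs are known elements of plasminogen activation genes and 3 of the members carry one near the start, while PLAU is shown for its GC boxes. Windows of 250 bases before to 50 bases after a gene's start, from RefSeq on GRCh38.p14, were held for 6 of the 7 genes and were searched on both strands for AP-1 (TGANTCA), the TATA box (TATAAA) and the GC box (GGGCGG). Capitals mark these motifs, and neighbouring GC boxes that overlap run together. The stretches end before annotated exons or are 30 bases long. They are SERPINB2 at chr18:63887455-63887699 on the plus strand, ANXA2 at chr15:60398044-60398236 on the minus strand, PLAUR at chr19:43670338-43670367 on the minus strand and PLAU at chr10:73911080-73911109 on the plus strand, each written 5′ to 3′.
SERPINB2: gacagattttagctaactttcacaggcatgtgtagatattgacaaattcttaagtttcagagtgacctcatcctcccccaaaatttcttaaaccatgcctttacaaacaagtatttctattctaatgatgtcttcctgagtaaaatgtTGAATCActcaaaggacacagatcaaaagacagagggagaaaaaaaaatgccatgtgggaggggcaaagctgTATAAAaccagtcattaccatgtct
ANXA2: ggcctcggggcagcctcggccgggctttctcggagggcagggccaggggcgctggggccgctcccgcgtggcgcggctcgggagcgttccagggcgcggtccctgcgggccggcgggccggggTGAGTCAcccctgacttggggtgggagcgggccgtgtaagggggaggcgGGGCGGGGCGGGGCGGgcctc
PLAUR: atcacaactccaTGAGTCAgggccgagcca
PLAU: gGGGCGGcgccgGGGCGGgccctgatatag

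SERPINB2 carried an AP-1 motif whose first base lies at position -102 from the start and a TATA box at -30. In ANXA2 the AP-1 motif was at -127, a TATA box outside the stretch shown was at -31, and 3 overlapping GC boxes began at -78. PLAUR had an AP-1 motif at -186 and neither of the other motifs, and one of the PLAU windows had GC boxes at -66, -51 and -40, of which the last 2 are shown. The S100A10 window had 1 GC box, and the SERPINE2 windows had 1 and 2. Of all 35116 windows, 7.709% held an AP-1 motif, 11.53% a TATA box and 44.95% a GC box. Both SERPINB2 and ANXA2 had an AP-1 motif and a TATA box. Any link between a motif and the difference between the groups was not tested. A match describes letters only and no factor's binding was measured.

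PLAT, on chromosome 8 at 42175233 to 42207724 of the minus strand (GRCh38), was the activator with the larger fall. It stood at 10.3, 21.0, 20.8 and 10.1 CPM in Dox libraries 1 to 4, against 29.4, 43.2, 58.7 and 39.9 CPM in woDox libraries 1 to 4. All 4 Dox libraries lay below all 4 woDox libraries, a separation seen for 504 of all tested genes (3.22%). The mean was 15.5 ± 6.19 CPM in Dox and 42.8 ± 12.1 CPM in woDox (SD, n = 4 each). The fitted log2 change, Dox minus woDox, was -1.46 (SE 0.31), the 16th lowest of the tested genes. Within numbers the log2 differences were -1.51, -1.04, -1.49 and -1.97, so PLAT was lower in 4 of 4 pairs, as were 2659 of all tested genes (17.0%). Without both libraries numbered 1 the log2 change was -1.45.

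PLAU, on chromosome 10 at 73909177 to 73917497 of the plus strand, was the more abundant activator in every library. Its level was 149, 139, 156 and 98.1 CPM in Dox libraries 1 to 4, against 327, 235, 289 and 261 CPM in woDox libraries 1 to 4. The groups did not overlap, and library 4 was the lowest of the Dox group. Means were 136 ± 26.0 CPM in Dox and 278 ± 39.5 CPM in woDox (SD, n = 4 each). The fitted log2 change was -1.04 (SE 0.16), a level of 0.488 times that in woDox, and pair differences were -1.13, -0.76, -0.88 and -1.41. It was -1.0 without both libraries numbered 1. C10orf55, a gene on the opposite strand that overlaps 31.05% of PLAU's exon bases, had 32, 31, 37 and 27 reads in Dox libraries and 58, 59, 72 and 42 reads in woDox libraries. Those reads came to between 0.881% and 1.45% of the PLAU counts, and because how the counting treated strand is not stated in the labels, reads of the 2 genes cannot be told apart.

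**Figure D1:**
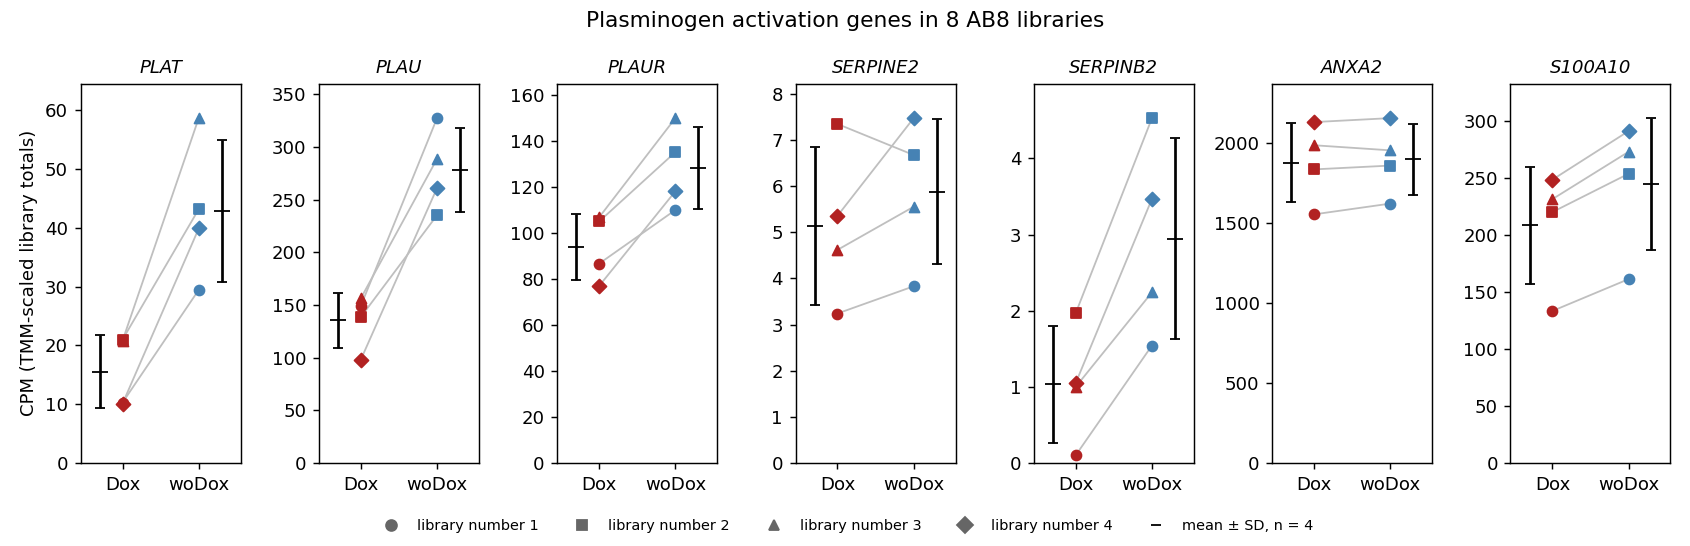
CPM of the 7 genes in each library, a panel per gene with its own linear axis from 0; red points are Dox, blue points woDox, grey lines join libraries of the same number and black bars give the mean ± SD (n = 4). PLAT, PLAU and PLAUR separate by group, while SERPINE2, SERPINB2, ANXA2 and S100A10 overlap.

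PLAUR, on chromosome 19 at 43646095 to 43670547 of the minus strand, moved less than its ligand. The receptor gene stood at 86.7, 105, 107 and 77.0 CPM in Dox libraries 1 to 4, against 110.0, 135, 150 and 118 CPM in woDox libraries 1 to 4. The groups were apart by a narrow margin, with the highest Dox library at 107 CPM and the lowest woDox library at 110.0 CPM. The mean was 93.9 ± 14.5 CPM in Dox and 128 ± 17.8 CPM in woDox (SD, n = 4 each), with a log2 change of -0.45 (SE 0.13) and pair differences of -0.34, -0.36, -0.49 and -0.62. Without both libraries numbered 1 it was -0.49. Counted per kilobase of exon, PLAU exceeded its receptor 2.60, 1.99, 2.21 and 1.93 times in Dox libraries 1 to 4 and 4.50, 2.63, 2.91 and 3.34 times in woDox libraries 1 to 4. The mean ratio was 2.18 ± 0.30 in Dox and 3.34 ± 0.82 in woDox (SD, n = 4 each). PLAU was picked for its fall, so the lower ratio in Dox is a description. The size of the ratio also depends on the exon lengths, 2950 bases for PLAU and 4457 bases for PLAUR. In CPM, without that division, PLAU was still the higher in every library of both groups, but by a smaller factor.

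The inhibitor SERPINB2, known as plasminogen activator inhibitor type 2 and largely kept inside cells, lies on chromosome 18 at 63871692 to 63903890 of the plus strand. It had 0.101, 1.97, 1.00 and 1.05 CPM in Dox libraries 1 to 4, against 1.54, 4.53, 2.24 and 3.47 CPM in woDox libraries 1 to 4. The groups overlapped, because Dox library 2 was higher than woDox library 1, but within each number Dox was the lower. These levels rest on 2, 45, 21 and 20 reads in Dox libraries and 31, 97, 48 and 58 reads in woDox libraries. The fitted log2 change was -1.49 (SE 0.60), and pair differences were -3.04, -1.16, -1.09 and -1.63. In pair 1, the ratio of Dox to woDox was 0.0657 with an exact 95% interval of 0.00761 to 0.258, which covers counting error only. Without both libraries numbered 1 the log2 change was -1.33. SERPINB10, on the same strand, shares 19.91% of SERPINB2's exon bases and had 6 reads in all.

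SERPINE2 encodes protease nexin 1, a secreted inhibitor of thrombin, urokinase and other serine proteases, and lies on chromosome 2 at 223975112 to 224039319 of the minus strand. Its level was 3.24, 7.35, 4.62 and 5.36 CPM in Dox libraries 1 to 4, against 3.83, 6.68, 5.56 and 7.48 CPM in woDox libraries 1 to 4. The groups overlapped widely and pair 2 ran the other way, with differences of -0.23, 0.14, -0.26 and -0.47. The log2 change was -0.19 (SE 0.28), smaller than its error, and -0.18 without both libraries numbered 1.

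Per kilobase of exon (CPM divided by exon length in kilobases, RPKM), SERPINE2 exceeded SERPINB2 in every Dox library, by 9.89, 1.15, 1.43 and 1.58 times, and lay below it in every woDox library, at 0.768, 0.456, 0.766 and 0.666 times. SERPINB2 was picked for its fall, so this exchange of places is a description. It also depends on the division by exon length, 8891 bases for SERPINE2 and 2748 bases for SERPINB2. In CPM, without that division, SERPINE2 was the higher in every library of both groups.

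**Figure D2:**
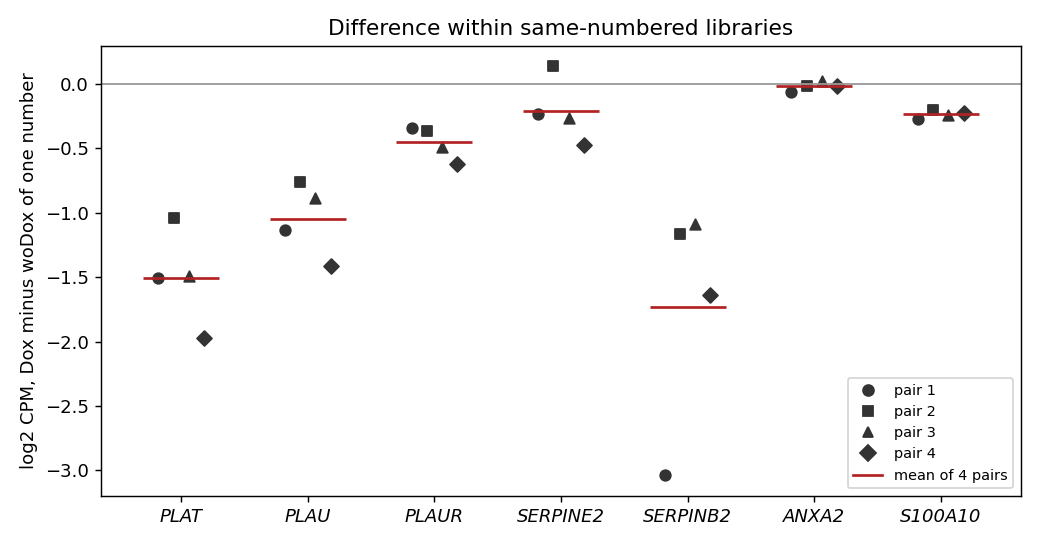
Difference in log2 CPM between Dox and woDox libraries of the same number for each of the 7 genes, with a marker per pair and a red line at the mean of the 4 pairs; the vertical axis is on the log2 scale. PLAT, PLAU, PLAUR, SERPINB2 and S100A10 are below 0 in all 4 pairs, and the 4 S100A10 markers lie within -0.27 to -0.21.

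Both docking protein genes had smaller fitted changes than the activators. ANXA2, on chromosome 15 at 60347134 to 60402883 of the minus strand, stood at 1556, 1838, 1989 and 2134 CPM in Dox libraries 1 to 4, against 1623, 1861, 1957 and 2159 CPM in woDox libraries 1 to 4. Same-numbered libraries had nearly the same level and the groups overlapped throughout. The log2 change was -0.02 (SE 0.12), and with the block -0.02 (SE 0.03). The processed copies ANXA2P2 and ANXA2P1 had between 3.41% and 3.71% and between 0.742% and 0.903% of the ANXA2 counts. Of the 75-base stretches of ANXA2 transcripts, 4.10% also occur in other genes, so some reads may be assigned to the wrong copy. These stretches were pooled over all annotated transcripts with equal weight, so the share of reads concerned was not measured.

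S100A10, on chromosome 1 at 151982915 to 151994390 of the minus strand, is the plasminogen-binding partner of annexin A2. It had 133, 220.2, 232 and 249 CPM in Dox libraries 1 to 4, against 161, 254, 273 and 291 CPM in woDox libraries 1 to 4. The groups overlapped because both libraries numbered 1 were low, yet each Dox library was below its woDox counterpart by a similar step, with pair differences of -0.27, -0.21, -0.24 and -0.23. The log2 change was -0.23 with an SE of 0.23 without the block and 0.03 with it. The ratio of ANXA2 to S100A10 per kilobase was 1.63 ± 0.28 in Dox and 1.40 ± 0.24 in woDox (SD, n = 4 each).

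The number of the 7 genes past an adjusted p of 0.05 is given only beside the number over all genes, and nothing is read from it, because the genes were picked from this contrast. In edgeR's quasi-likelihood test without the block it was 0 of 7, where 6 of all 15637 tested genes passed (0.0384%). With the block 5 of the 7 were past it and lower, where 984 of all tested genes were lower (6.29%) and 1175 higher (7.51%). In DESeq2 without the block the number was 2 of 7, where 132 of all tested genes were lower (0.844%). With both libraries numbered 1 left out and no block it was 1 of 7, where 301 of 15769 genes were lower (1.91%). With the block and without pair 1 it was 4 of 7, where 913 of 15769 genes were lower (5.79%).

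**Figure D3:**
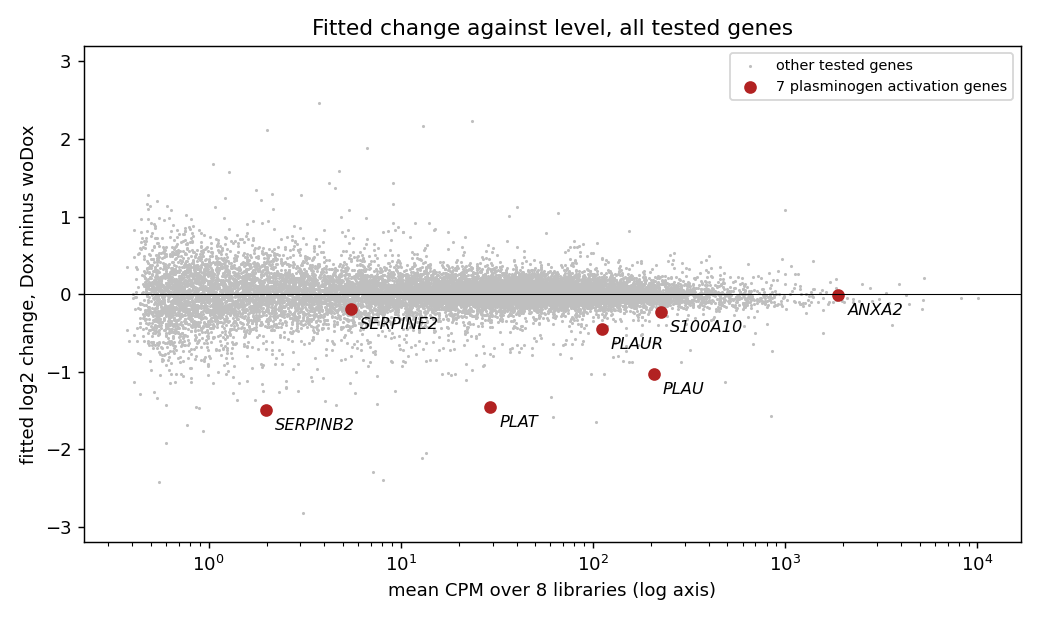
Fitted log2 change, Dox minus woDox, without the block, against the mean CPM over 8 libraries on a log axis for all 15637 tested genes; 2 genes lie outside the vertical range. The red points mark the 7 genes, of which SERPINB2, PLAT and PLAU lie below -1 and ANXA2 lies near 0.

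Levels of the 7 genes spanned a wide range per length of exon. In Dox libraries the mean was 213 RPKM for ANXA2, 135 for S100A10, 46.0 for PLAU, 21.1 for PLAUR, 2.35 for PLAT, 0.578 for SERPINE2 and 0.375 for SERPINB2. In woDox libraries it was 215 RPKM for ANXA2, 159 for S100A10, 94.3 for PLAU, 28.8 for PLAUR, 6.47 for PLAT, 1.07 for SERPINB2 and 0.662 for SERPINE2. In Dox the libraries of neighbouring genes in this order did not overlap, except for SERPINE2 and SERPINB2. In woDox the ranges of ANXA2 and S100A10 overlapped, as did those of S100A10 and PLAU and those of SERPINB2 and SERPINE2. Exon length was taken over all annotated transcripts of a gene, so levels of genes with long rare exons are understated.

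Among the 7, the closest pattern over the 8 libraries was that of PLAT and PLAUR, with a Pearson correlation of log2 CPM of 0.97, and 0.98 without both libraries numbered 1. PLAT and PLAU had 0.84 over 8 libraries and 0.98 over the 6. For ANXA2 and S100A10 the value was 0.92 over 8 libraries and 0.57 over the 6. All points share the same libraries and the group difference by which the genes were picked.

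Outside the 7, the genes most like PLAT among 9671 genes of at least 10 CPM were PTPN12, USP36, MIER2 and TMEM132A, each with a correlation of 0.98, and of 0.98 to 0.99 over the 6 libraries not numbered 1. TMEM132A averaged 68.6 ± 14.4 CPM in Dox and 107 ± 12.8 CPM in woDox (SD, n = 4 each). For PLAU the genes were MFSD2B (0.97), TPCN1 (0.97), TRIM16 (0.97) and SRC (0.96), with 0.95 to 0.99 over the 6. MFSD2B averaged 28.0 ± 3.40 CPM in Dox and 46.0 ± 3.60 CPM in woDox (SD, n = 4 each). Closest to SERPINB2 were PRDX1 (0.99), C3orf52 (0.97), MTFR2 (0.97) and GSTO1 (0.96), with values of 0.94, 0.98, 0.93 and 0.91 over the 6 libraries not numbered 1, where the order differs, and Dox library 1 has 2 SERPINB2 reads. Their fitted log2 changes lay between -0.22 and -0.14.

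Of 20 further genes of fibrinolysis, plasminogen binding and activator clearance, 12 were expressed enough to be tested and 8 had at most 3 reads in any library. None passed without the block, and with it 2 were called lower and none higher, where 6.29% of all tested genes were called lower and 7.51% higher. PLGRKT, a plasminogen receptor of the cell surface, averaged 35.2 ± 5.41 CPM in Dox and 41.3 ± 7.11 CPM in woDox (SD, n = 4 each), and fell by 0.22 on the log2 scale with the block (adjusted p = 0.0128 in edgeR). That call was lost without pair 4 (adjusted p = 0.0879 in edgeR) and in DESeq2 with the block (adjusted p = 0.0643). F12, coagulation factor XII, averaged 7.23 ± 0.99 CPM in Dox and 8.88 ± 1.43 CPM in woDox (SD, n = 4 each), with an adjusted p of 0.0380 in edgeR with the block. Its call was lost with any of the 4 pairs left out (adjusted p = 0.0567 to 0.131 in edgeR) and in DESeq2 with the block (adjusted p = 0.275). The clearance receptor LRP1, which internalises activator and inhibitor complexes, averaged 76.5 ± 16.8 CPM in Dox and 72.7 ± 10.5 CPM in woDox (SD, n = 4 each; adjusted p = 0.669 in edgeR with the block). MRC2, the urokinase receptor-associated collagen receptor, averaged 137 ± 18.5 CPM in Dox and 156 ± 35.1 CPM in woDox (SD, n = 4 each; adjusted p = 0.0542 in edgeR with the block, and 0.00115 without pair 1). The list's median log2 change was 0.12, against 0.00 over all tested genes.

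Of 15 partners of the urokinase receptor, 12 were tested and 3 had at most 9 reads in any library; none passed without the block, and with it 2 rose and 3 fell, beside 7.51% higher and 6.29% lower over all tested genes. EGFR, a growth factor receptor, averaged 299.9 ± 17.2 CPM in Dox and 221 ± 34.2 CPM in woDox (SD, n = 4 each), with an adjusted p of 0.00126 in edgeR with the block. PDGFRB, named after its value was seen, was the other gene that rose (adjusted p = 0.0299 in edgeR with the block), but it kept the call in 1 of 5 other fits with the block, the one without pair 2; the other 4 gave adjusted p-values of 0.104 to 0.161. The fibronectin receptor subunit ITGA5, the caveolar protein CAV1 and the kinase SRC fell, by 0.20, 0.20 and 0.15 on the log2 scale with adjusted p-values of 0.00344, 0.00369 and 0.0136 in edgeR with the block. SRC lost its call without pair 3 (adjusted p = 0.0727 in edgeR) and in DESeq2 with the block (adjusted p = 0.0571). The vitronectin receptor subunit ITGAV averaged 186 ± 18.0 CPM in Dox and 186 ± 22.4 CPM in woDox, its partner ITGB3 21.9 ± 3.79 CPM in Dox and 20.1 ± 1.12 CPM in woDox, and ITGB1 698 ± 57.6 CPM in Dox and 675 ± 99.4 CPM in woDox (SD, n = 4 each). None of these 3 integrin genes passed in either fit, and the list's median log2 change was -0.01.

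Of 16 other annexins, S100 genes and the S100A10 partner AHNAK, 15 were tested, none passed without the block, and 1 rose and 7 fell with it, beside 7.51% higher and 6.29% lower over all tested genes. S100A6 averaged 619 ± 131 CPM in Dox and 759 ± 151 CPM in woDox (SD, n = 4 each), a fall of 0.30 on the log2 scale (adjusted p = 8.04e-05 in edgeR with the block). S100A2, S100A11 and S100A16 fell by 0.27, 0.23 and 0.18 on the log2 scale, with adjusted p-values of 0.00132, 0.00229 and 0.00426 in edgeR with the block. AHNAK, named after its value was seen, was the gene that rose. ANXA1 averaged 181 ± 34.1 CPM in Dox and 169 ± 39.9 CPM in woDox (SD, n = 4 each; adjusted p = 0.0904 in edgeR with the block). The list's median log2 change was -0.17, and 10 of its 15 tested genes were lower in Dox in 4 of 4 pairs, where 17.0% of all tested genes were.

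**Figure D4:**
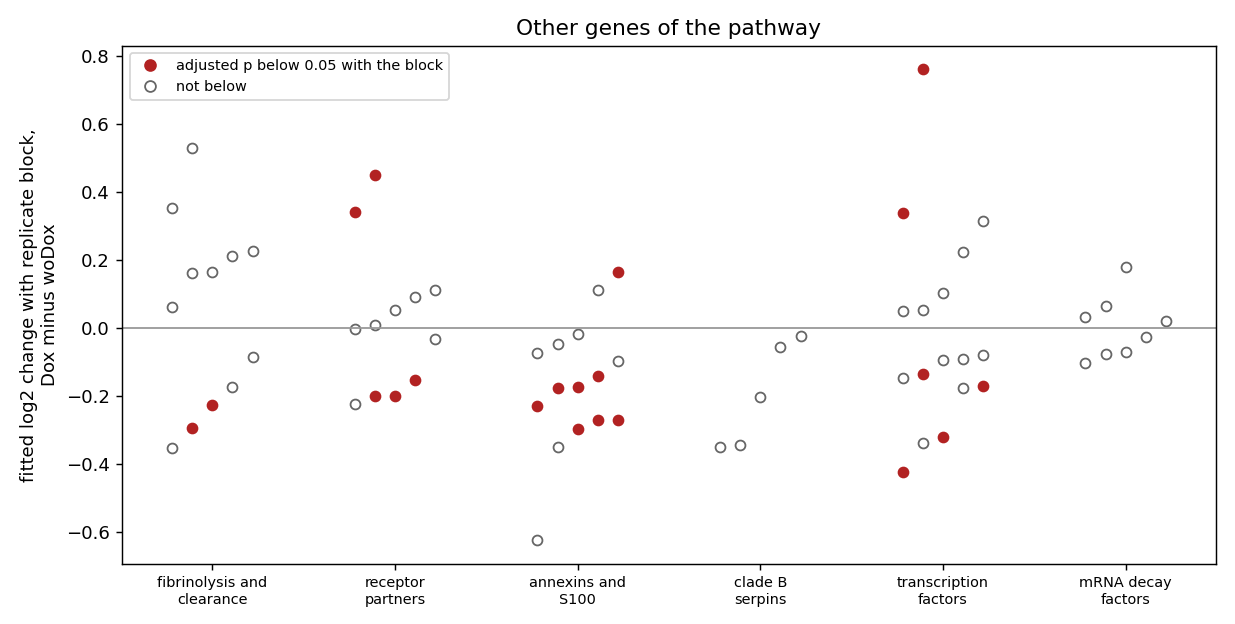
Fitted log2 change with the replicate block, Dox minus woDox, of the 69 tested genes of 6 lists, a point per gene spread sideways for legibility; filled points passed an adjusted p of 0.05 in edgeR with the block. Filled points number 21, of which 5 are above 0 and 16 below, and all lie between -0.42 and 0.76.

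Of 12 further serpins of clade B, the family of SERPINB2, 5 were tested and 7 had at most 3 reads in any library. None passed in either fit. SERPINB7 averaged 9.03 ± 3.08 CPM in Dox and 11.3 ± 2.40 CPM in woDox, and SERPINB8 45.8 ± 12.1 CPM in Dox and 52.1 ± 6.99 CPM in woDox (SD, n = 4 each). Their adjusted p-values in edgeR with the block were 0.0532 and 0.114, and SERPINB7 was at 0.0218 without pair 3.

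All 17 listed transcription factors of the AP-1, ETS, NF-kB, CREB, SP and EGR families were tested; none passed without the block, and with it 2 rose and 4 fell, beside 7.51% higher and 6.29% lower over all tested genes. JUNB, an AP-1 subunit, averaged 36.6 ± 16.1 CPM in Dox and 48.8 ± 19.5 CPM in woDox (SD, n = 4 each), a fall of 0.42 on the log2 scale (adjusted p = 6.90e-05 in edgeR with the block). ETS2 fell by 0.32 and FOSL1 by 0.17 on the log2 scale, with adjusted p-values of 0.00168 and 0.00802 in edgeR with the block. REL, a subunit of NF-kB, rose, with averages of 15.8 ± 1.26 CPM in Dox and 12.5 ± 1.92 CPM in woDox (SD, n = 4 each; adjusted p = 0.00916 in edgeR with the block). REL lost its call without pair 4 (adjusted p = 0.0622 in edgeR) and in DESeq2 with the block (adjusted p = 0.0625). FOS, which rose, and FOSL2, which fell, were named after their values were seen (adjusted p = 0.0257 and 0.0276 in edgeR with the block). FOS lost its call without pairs 1, 2 or 4 (adjusted p = 0.118, 0.0811 and 0.0778 in edgeR) and had no adjusted p in DESeq2 with the block, and FOSL2 lost its call without pairs 2, 3 or 4 (adjusted p = 0.113, 0.139 and 0.0848 in edgeR). JUN, ETS1 and RELA did not pass in either fit, with adjusted p-values of 0.236, 0.0761 and 0.204 in edgeR with the block. With the block, JUN passed without pair 1 (log2 change -0.17, adjusted p = 0.0115 in edgeR). ETS1 passed without pair 4 (log2 change -0.20, adjusted p = 0.0340 in edgeR with the block).

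None of the 8 listed factors of mRNA decay and stability, some of which bind AU-rich messages, passed in either fit. ZFP36 averaged 13.5 ± 8.32 CPM in Dox and 13.9 ± 4.75 CPM in woDox, ZFP36L1 264 ± 58.4 CPM in Dox and 268 ± 55.5 CPM in woDox, and ELAVL1 173 ± 8.17 CPM in Dox and 169 ± 4.66 CPM in woDox (SD, n = 4 each). Over the 6 lists, 6 of 69 tested genes had an unadjusted p under 0.05 in edgeR without the block, as did 1466 of all 15637 tested genes. DESeq2 without the block called 1, EGFR, where it called 1.53% of all tested genes. In all, 21 of 69 tested genes were called with the block, where 13.8% of all tested genes were called, and 13 of the 21 were also called in all 5 other fits with the block, namely those without each pair and DESeq2. With the block and without pair 1, 21 were called (10.9% of all tested genes), and without the block and without both libraries numbered 1, 8 were (3.44% of all tested genes). The labels do not say that the libraries of a group came from separate cultures, and the p-values cover only variation among these libraries.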

How the data were processed

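Total RNA libraries were made with a directional kit and read once over 75 bases, per the labels' protocols. The deposited raw table holds whole-number read counts per Ensembl gene; the submitters' processing notes name HISAT2 2.1.0, Trimmomatic 0.38, DESeq2 1.24.0, HTSeq 0.11.1, bcl2fastq and hg38 (GRCh38), and whether counting used strand is not given in the sources used here. A second deposited table, a normalized signal, equals the counts divided by 1 DESeq2 size factor per library and was used only to check that.

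Of 58395 gene IDs, 58275 matched GENCODE release 29, from which symbols, coordinates and exon lengths come. Counts were filtered with filterByExpr (minimum count 10), scaled by TMM and fitted with edgeR 4.0.16 in R 4.3.3 (robust quasi-likelihood, Benjamini-Hochberg over all tested genes, threshold 0.05, 2-sided). DESeq2 1.42.0, other scalings and filters, each library left out, and the replicate block were alternatives. A log2 CPM has a prior count of 2, and 3 counts correspond to 0.131 to 0.179 CPM. The SE of a fitted log2 change was derived from the test, as the absolute change divided by the square root of the quasi-likelihood F. The number of replicates was 4 per group.

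Same-numbered libraries deviated together, with correlations of 0.911, 0.704, 0.707 and 0.648 over 11502 genes. Each Dox library correlated best with the woDox library of its own number, and the reverse was not checked. Between different numbers the correlation reached 0.667, above that of pair 4. The group means included the outlying libraries numbered 1, which alone can make the other libraries of both groups deviate together. The pairing rests on this limited check, since no label explains the numbers. The members and lists were chosen with earlier results of these data known. Named genes are the members, up to 4 called genes per list with the smallest p with the block, a set of listed genes whatever their call, and the 4 closest in pattern to PLAT, PLAU and SERPINB2. Some marker genes are not reported here.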

Additional observations from a re-analysis of the deposited data

Results flagged for a closer look

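Of 70 groups of 4 libraries examined for 35 genes, 13 held 1 library far from the other 3, measured by its gap to the nearest relative to the whole range; chance alone flags about 1 group in 20. None of the 7 genes of plasminogen activation was among them, and 12 of the 13 concern a library numbered 1. In Dox library 1, PLGRKT was at 27.2 CPM (36.6 to 38.5 CPM in the rest of the group), and CAV1 at 122 CPM (203 to 208 CPM). S100A11 in Dox library 1 was at 97.8 CPM (157 to 162 CPM in the others), S100A16 at 156 CPM (226 to 229 CPM) and RELA at 103 CPM (133 to 139 CPM). LRP1, JUNB and ZFP36 were high in Dox library 1, at 101 CPM, 60.7 CPM and 26.0 CPM. In woDox library 1, JUNB and ZFP36 were high too, at 78.0 CPM and 21.0 CPM, while ANXA1 was low at 110.3 CPM and S100A16 at 183 CPM. FOSL1 was low in woDox library 4, at 303 CPM (361 to 371 CPM in the rest of the group).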

How the results depend on the processing

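The log2 changes of PLAT, PLAU, PLAUR, SERPINE2, SERPINB2 and S100A10 kept their sign under all alternatives run. Their ranges were -1.65 to -1.27, -1.14 to -0.91, -0.52 to -0.37, -0.42 to -0.03, -2.03 to -1.12 and -0.39 to -0.07. ANXA2 ranged from -0.09 to 0.06 and kept its sign in 18 of 20. None moved by more than the spread between replicates, but leaving out a single library can hardly move a change that far, so little is learned from this. For SERPINE2, S100A10 and ANXA2 that spread, the pooled SD of log2 CPM within groups, was 0.45, 0.40 and 0.18, larger than the change itself. SERPINE2 and SERPINB2 are left out by the filter at 10 CPM.

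The number of genes called over the whole table depended on the pairing: 6 without the block and 2159 with the replicate block, and with the block 1721 without pair 1, 1969 without pair 2, 1254 without pair 3 and 909 without pair 4. DESeq2 called 240 without and 1107 with the block, which gave SERPINB2 no adjusted p. No filter on low counts gave 37 calls. Leaving out a single library gave 3 to 16: 16 without Dox library 1, 6 without woDox library 1, 4 without woDox library 3 and 3 without any of the other 5. Leaving out both libraries numbered 1, chosen after seeing the data, gave 543. At an unadjusted p under 0.05 the fit without the block held 1466 genes.

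Of the listed genes, 0 were called without the block and 21 with it, beside 6 and 2159 of all tested genes. With the block and a pair left out, 16 to 21 were called, beside 909 to 1969 of all tested genes. DESeq2 called 1 without the block and 17 with it, beside 240 and 1107. Without both libraries numbered 1 the number was 8, beside 543. The causes were not tested. SERPINB2, at 2 to 97 reads, has the least depth of the 7 genes.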
